A study of Mus musculus with 28 samples.

Results

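The livers described here are those of 10-week-old mice in a study of non-alcoholic steatohepatitis (NASH): 5 from the STAM model and 5 controls, which make 10 of the 28 liver samples of the series. All were male C57BL/6 mice. STAM mice had received streptozotocin on postnatal day 2 and a high-fat diet from week 4 onward, and their livers were taken at 10 weeks of age. The controls of the same age are labelled as fed a control diet. The labels do not say whether they received a vehicle injection as newborns, and the effects of the toxin, of the diabetes that it causes and of the high-fat diet cannot be told apart in this comparison. The samples were chosen by their labelled group alone and none by its values. Messenger RNA with poly(A) tails was sequenced from whole liver tissue, and each library gives 1 value per gene, in log2 CPM (read counts scaled by library size), for 20416 genes. No label ties a replicate to a mouse of its own. The p-values therefore rest on sample-to-sample spread, part of which may be technical.

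Streptozotocin enters pancreatic beta cells through a glucose transporter and kills them, so a mouse treated as a newborn grows up short of insulin. Insulin acts on the hepatocyte, the main cell of the liver, to switch on glucose storage and lipid synthesis and to switch off glucose production. A high-fat diet in that state fills hepatocytes with fat, and the model is known for passing from fatty liver through inflammation and scarring to liver tumours. Resident macrophages (Kupffer cells), recruited macrophages, stellate cells that lay down collagen, sinusoidal endothelial cells and bile duct cells make up most of the rest of the tissue.

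The libraries held 17250328 to 24243198 reads over the listed genes in the controls and 17981862 to 25258730 in the STAM group, which did not differ beyond their spread (exact permutation test of the means, two-sided, p = 0.444). Reads were found for 14291 to 14506 genes in the controls and for 14917 to 15142 in the STAM livers, with no overlap (exact permutation test, p = 0.00794, which is the smallest that 5 against 5 can give, and 0.0132 after Benjamini-Hochberg adjustment over 5 measures). Albumin (Alb) took 6.44% ± 0.976 of the reads in the controls (SD, n = 5) and 4.07% ± 0.753 in the STAM livers (exact permutation test, p = 0.0159, adjusted 0.0198). A count of 3 reads was worth at most 0.198 CPM in any library. Albumin and other hepatocyte genes were abundant in all 10 libraries, as in any liver sample. Control 1 and STAM 5 stood apart most from their groups. Of 7656 genes with a mean above the median, 113 in control 1 and 65 in STAM 5 lay more than 2-fold from the median of the other replicates. Control 2 came close to STAM 5 with 59, and the remaining libraries had 9 to 29. Control 1 was high in the acute phase genes Saa1, Saa2, Saa3 and Lcn2 and in the metallothioneins Mt1 and Mt2, and STAM 5 was low in Hsd3b5, Hamp and Slco1a1. No sequencing batch or date was given in the labels. Values below are in CPM, listed in the order of replicates 1 to 5, and a log2 fold change is STAM minus control with its standard error.

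A large share of the measured liver transcriptome differed between STAM and control at 10 weeks. Of 15312 genes tested, 7319 passed an adjusted p of 0.05 (limma, with Benjamini-Hochberg adjustment over all genes tested), which is 47.8%. Of these, 3876 were higher in STAM (25.3% of the genes tested) and 3443 were lower (22.5%). The 2 groups of 5 did not overlap for 5067 genes (33.1%). Changes of at least 2-fold were mostly rises, with 1884 genes up and 291 down, against 883 up and 590 down with quantile scaling and 408 up and 200 down when only genes above the median level of all listed genes were tested. The median over all genes tested was 0.05 on the log2 scale. This even split rests on the authors' scaling, in which the factor was 0.878 to 0.939 in the controls and 1.05 to 1.16 in STAM. With the same reads scaled by their plain total, the median moved to 0.33, and 7019 genes were higher (45.8%) and 953 lower (6.22%). Values below use the authors' scaling, and a gene group whose direction turned with the plain total is named as such where it is described. Counts of list members below stand against the shares of all genes, 25.3% higher and 22.5% lower, or 45.8% and 6.22% with plain totals. In whole tissue, fewer cells of a type and less RNA per cell cannot be told apart.

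**Figure D1:**
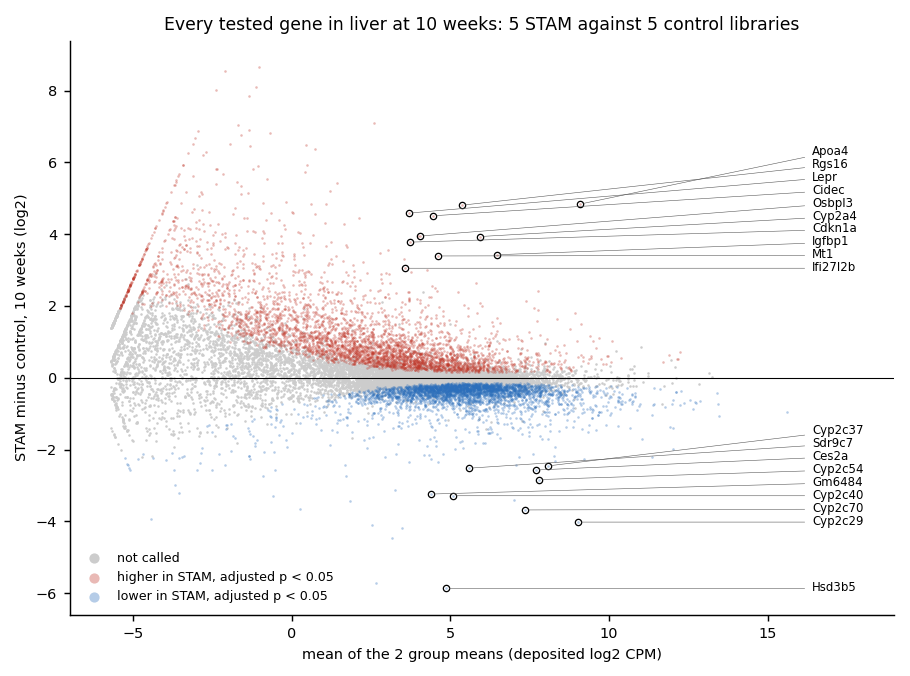
Each point is 1 of the 15312 genes tested: the horizontal axis is the mean of the 2 group means in deposited log2 CPM and the vertical axis is STAM minus control at 10 weeks (log2, n = 5 a group). Red and blue points passed an adjusted p of 0.05. The circled genes are the 10 largest rises and 9 of the 10 largest falls among genes above the median level whose groups did not overlap, from 4.84 (Apoa4) to -5.87 (Hsd3b5).

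Among genes above the median level whose groups did not overlap, the largest rise was that of Apoa4 (NM_007468, chr9:46240844-46243458 in mm10), an apolipoprotein of triglyceride-rich particles that liver makes when loaded with fat. It stood at 156, 117, 104, 84.96 and 69.4 CPM in the controls and at 2014, 3519.5, 2232, 3792 and 3565 in the STAM livers, a rise of 4.84 ± 0.24 (adjusted p = 4.22e-07), or 28.6-fold. Every STAM value was more than 10 times every control value. Cidec (chr6:113424634-113435760), a protein that fuses lipid droplets into larger ones, had 2.57, 11.5, 3.06, 4.08 and 5.48 CPM in the controls and 74.8, 109, 92.00, 125 and 135 in STAM (4.51 ± 0.38, adjusted p = 2.38e-05). Rgs16, a regulator of G protein signalling in hepatocytes, went from 2.92 to 16.2 to 149.6 to 366 CPM (4.81 ± 0.50). Lepr, the leptin receptor, whose soluble form the liver releases, went from 1.45 to 4.22 to 39.98 to 88.2 CPM (4.59 ± 0.29). The other large rises were Osbpl3, an oxysterol-binding protein (3.95), Cyp2a4, a steroid hydroxylase that is higher in female liver (3.94), Cdkn1a, the p21 inhibitor of the cell cycle (3.78), Igfbp1, an insulin-repressed binding protein of insulin-like growth factors (3.43), Mt1, a zinc-binding metallothionein (3.39), and Ifi27l2b (3.05). Adjusted p-values of these 10 ran from 4.22e-07 for Apoa4 to 0.00258 for Mt1.

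The largest fall was that of Hsd3b5 (NM_008295, chr3:98618636-98645534), a steroid dehydrogenase that male mouse liver expresses. It had 216, 175, 256, 269 and 199 CPM in the controls and 9.18, 1.23, 8.50, 16.2 and 0.469 in the STAM livers (-5.87 ± 0.96, adjusted p = 0.00135). The STAM livers spread widely, with replicates 2 and 5 far below the other 3, and all lay below every control. Cyp2c29 (chr19:39287085-39330713), an abundant cytochrome P450 of the smooth endoplasmic reticulum, had 1788, 2073, 2369, 2340.2 and 1909 CPM in the controls and 154, 114, 191, 163 and 64.2 in STAM, or 6.17% of the control level (-4.02 ± 0.26, adjusted p = 1.64e-06). Cyp2c70, which makes the rodent-specific muricholic bile acids, fell as well (-3.68). The same family on chromosome 19 also gave Cyp2c40 (-3.29), Cyp2c54 (-2.84) and Cyp2c37 (-2.45). Several genes of this family are similar in sequence, and the split of reads between them was not tested. The list also held Ces2a, a carboxylesterase (-2.57), Sdr9c7, a short-chain dehydrogenase (-2.52), and the predicted gene Gm6484 (-3.24).

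**Figure D2:**
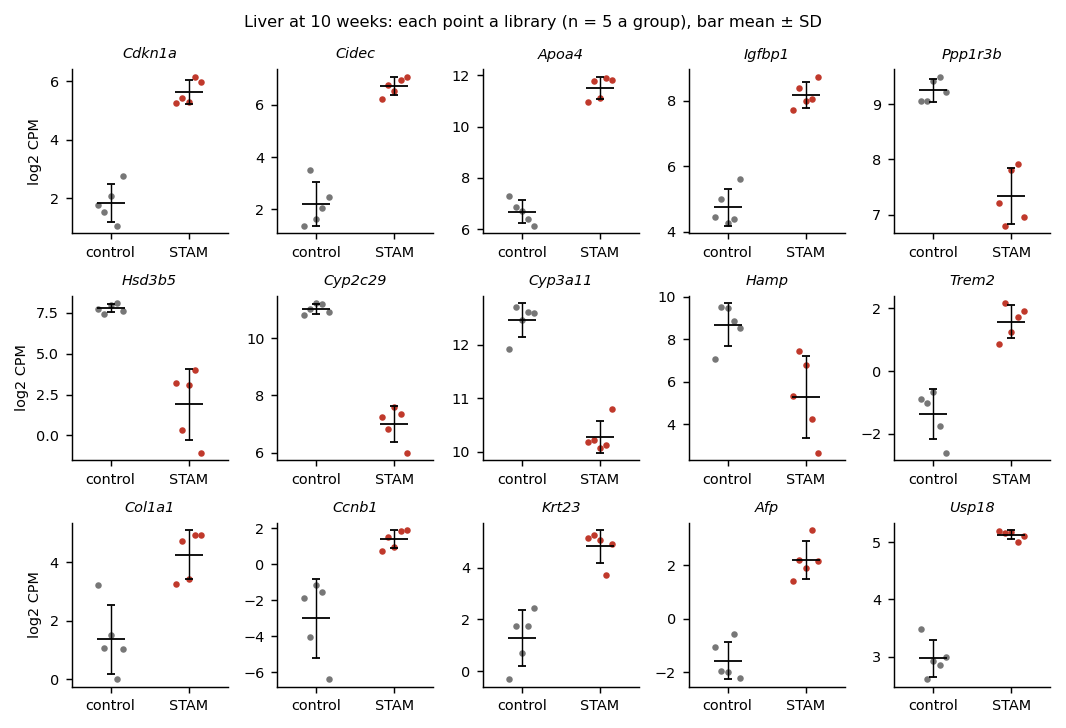
Each point is 1 library at 10 weeks (deposited log2 CPM; 5 controls in grey and 5 STAM livers in red), with the group mean and SD as bars; each panel has its own scale. In the panels of Cdkn1a, Cidec, Apoa4, Igfbp1, Trem2, Ccnb1, Krt23, Afp and Usp18 all STAM points lie above all control points, in those of Ppp1r3b, Hsd3b5, Cyp2c29 and Cyp3a11 all lie below, and in that of Hamp the groups overlap.

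Genes of the unfolded protein response fell together. The response lets a cell that is loaded with unfolded protein in its endoplasmic reticulum make more chaperones, and hepatocytes, which secrete most plasma proteins, run it at a high level. All 21 listed members were tested and all 21 were lower in STAM, against 22.5% of all genes tested, with a median of -0.98 against 0.05 over all genes. The groups did not overlap for 19 of the 21, against 33.1% of all genes. Scaled by plain totals or by quantiles, 18 of the 21 were lower and none higher. The exceptions in both were Herpud1, Atf6 and Ern1. Leaving out any 1 library kept the count at 21. The summed level of the list was 7937 to 10672 CPM in the controls and 4215 to 5328 in the STAM livers. The same livers had lower sums over the core hepatocyte genes, given further on, and the part of that in the fall of the chaperones was not tested.

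The chaperone Hspa5 (BiP; NM_022310, chr2:34772090-34776529), the sensor-binding Hsp70 of the endoplasmic reticulum, had 1738, 1667, 1670.2, 1134 and 1360.0 CPM in the controls and 709, 519, 618, 573 and 624 in the STAM livers, a fall to 40.5% (-1.30 ± 0.13, adjusted p = 5.13e-06). The highest STAM value lay well under the lowest control value. The largest fall of the list was that of Sdf2l1, a partner of that chaperone, with 95.4, 53.5, 62.8, 39.3 and 48.7 CPM in the controls and 19.2, 10.6, 17.6, 13.1 and 8.15 in STAM (-2.13 ± 0.29, adjusted p = 0.000243). Creld2 (-1.78), Hyou1, an exchange factor for BiP (-1.71), and Manf, a small chaperone that can be secreted (-1.51), followed. Among the co-chaperones, Dnajb9 changed by -1.14, Dnajb11 by -1.03 and Dnajc3 by -0.98. The disulphide isomerases Pdia4 (-1.05), Pdia3 (-1.01) and Pdia6 (-0.88) and the lectin chaperones Calr (-0.86) and Canx (-0.72) fell less. Syvn1 (-1.29), Edem1 (-0.96) and Sel1l (-0.77), which send misfolded proteins to degradation, fell too. Xbp1, the factor whose mRNA is spliced by the sensor IRE1, changed by -0.76. The smallest changes of the list were those of the sensors, Atf6 by -0.37 and Ern1, which encodes IRE1, by -0.29 (adjusted p = 0.0119; with plain totals 0.00, adjusted p = 0.984). These gene-level values do not separate the spliced from the unspliced form of Xbp1.

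**Figure D3:**
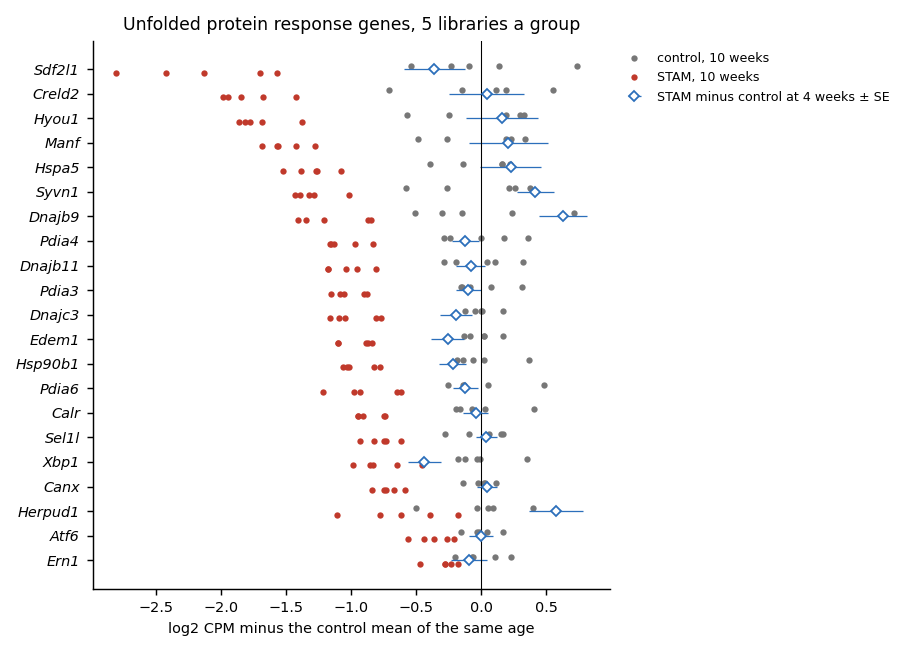
Each row is 1 gene of the unfolded protein response: grey points are the 5 control and red points the 5 STAM libraries at 10 weeks, in log2 CPM minus the control mean of that age, and blue diamonds are STAM minus control at 4 weeks with its standard error. The red points lie left of all grey points in 19 of the 21 rows (not for Herpud1 and Ern1), from -2.13 on average for Sdf2l1 to -0.29 for Ern1.

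Promoter sequence is shown for 5 of these genes because the list shares a known element. The endoplasmic reticulum stress element is read by ATF6 and XBP1 and was searched as CCAAT and CCACG 9 bases apart, on both strands, in the window from 250 bases before to 50 after each RefSeq start (GRCm38.p6). It was found for 8 of the 18 members with a window (Hspa5, Hsp90b1, Dnajc3, Creld2, Pdia6, Calr, Canx and Syvn1), against 0.119% of 32851 windows and 0.137% of 27025 genes. The stretches of 120 bases below are printed 5′ to 3′ on the strand of the gene, with the element and its spacer in capitals.
Hspa5: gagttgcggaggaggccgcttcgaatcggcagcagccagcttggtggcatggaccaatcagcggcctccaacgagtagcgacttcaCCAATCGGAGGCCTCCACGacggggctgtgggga
Dnajc3: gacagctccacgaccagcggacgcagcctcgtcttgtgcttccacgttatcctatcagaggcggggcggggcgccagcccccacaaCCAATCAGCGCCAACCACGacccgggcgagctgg
Creld2: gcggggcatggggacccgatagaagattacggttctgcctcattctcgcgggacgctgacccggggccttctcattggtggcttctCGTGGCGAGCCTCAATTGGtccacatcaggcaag
Syvn1: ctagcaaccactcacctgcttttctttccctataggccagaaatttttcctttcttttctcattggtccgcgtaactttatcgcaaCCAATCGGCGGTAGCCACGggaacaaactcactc
Canx: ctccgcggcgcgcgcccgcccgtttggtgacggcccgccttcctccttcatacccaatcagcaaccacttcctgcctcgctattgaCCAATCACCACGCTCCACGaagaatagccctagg
They lie at chr2:34771939-34772058 (plus strand), chr14:118937741-118937860 (plus), chr15:88819434-88819553 (plus), chr19:6046446-6046565 (plus) and chr11:50325785-50325904 (minus). The element ended 46 bases before the start of Hspa5, 86 before that of Dnajc3, 107 before that of Creld2, 25 before that of Syvn1 and 126 before that of Canx. That of Creld2 is in the reverse direction. CCAAT alone, which is contained in the element, was found for 16 of the 18 members, against 41.1% of all genes. A match of letters describes the sequence and does not show that a factor is bound there.

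Genes of the integrated stress response, a separate pathway in which the factor ATF4 raises amino acid synthesis and transport, went mostly the other way. Of 22 tested members 11 were higher and 1 was lower (Cebpg, -0.47; with plain totals adjusted p = 0.167), with a median of 0.67. Slc7a11, the cystine importer, had 0, 0.0486, 0, 0.0469 and 0.102 CPM in the controls and 3.55, 2.86, 0.886, 15.1 and 10.2 in STAM (adjusted p = 4.16e-05); the control values are worth no more than 2 reads each. Stc2, a secreted glycoprotein, rose by 3.71 ± 0.59, Psat1, an enzyme of serine synthesis, by 2.49, Chac1, which breaks down glutathione, by 1.83, Atf3 by 1.63 and the pseudokinase Trib3 by 1.41. Atf4 itself (-0.25, adjusted p = 0.0787, but 0.0384 without STAM 5), Ddit3, which encodes CHOP (-0.28, adjusted p = 0.276), and Asns (0.36, adjusted p = 0.432, but 0.0245 without control 1) did not pass the test. The ATF4 element, searched as TGATG and AA 1 base apart, was found for 6 of 20 members, against 4.51% of all genes.

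Targets of p53 were higher. Of 22 tested members of a list of p53 targets and cell cycle inhibitors 15 rose and none fell, with a median of 0.92. Cdkn1a (NM_001111099, chr17:29090986-29100722), which halts the cell cycle, had 3.37, 2.91, 4.26, 2.06 and 6.70 CPM in the controls and 37.97, 43.3, 39.04, 70.8 and 63.03 in the STAM livers (3.78 ± 0.30, adjusted p = 8.73e-06). Eda2r, a receptor gene induced by p53, went from 0.355 to 1.07 to 10.7 to 16.2 CPM (4.29), and Phlda3, a repressor of AKT, from 0.328 to 0.965 to 7.24 to 10.5 (3.78). The cell death gene Pmaip1 rose by 1.76, Btg2 by 1.67, Ccng1 by 0.89 and Mdm2, the ligase that degrades p53, by 0.40. Cdkn2a, which encodes p16 and ARF, did not pass (1.19, adjusted p = 0.168). Gdf15, a secreted stress signal, rose by 1.19 (adjusted p = 0.0284), but its groups overlapped, and it did not pass with quantile scaling (adjusted p = 0.16), without control 1 and STAM 5 together (adjusted p = 0.0942) or without 1 of 6 single libraries (not without control 1, 4 or 5 or STAM 1, 2 or 5 alone, adjusted p up to 0.0688).

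Among targets of NRF2 and glutathione enzymes, 6 of 24 rose and 11 fell with the authors' scaling, against 25.3% and 22.5% of all genes. With plain totals 11 rose and 4 fell. Gpx2, a glutathione peroxidase, went from 0 to 0.144 to 0.469 to 4.80 CPM (3.75 ± 0.80), and Srxn1 (1.21), Gstm3 (1.17) and Nqo1 (1.04) rose as well. The transferases Gsta2 (-1.44), Gsta3 (-1.35), Gsta4 (-1.07) and Gstm6 (-0.91) fell. Hmox1, which breaks down haem, did not pass (0.28, adjusted p = 0.103, but 0.0338 without control 3). It passed as higher with plain totals. The members that moved thus went in both directions within 1 enzyme family.

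Genes that insulin switches off were mostly higher. Igfbp1 (chr11:7197787-7202546) had 21.7, 32.2, 19.3, 20.8 and 49.2 CPM in the controls and 212, 331, 255, 263 and 423 in STAM (3.43 ± 0.28, adjusted p = 1.47e-05). Of 15 genes of gluconeogenesis and insulin repression 11 were higher and 1 was lower (Gpt, -0.34; not with plain totals or quantiles, and not without control 1, 4 or 5 or STAM 1, 2, 4 or 5 alone, adjusted p up to 0.0983), with a median of 0.60. The transaminase Got1 rose by 1.90, Irs2, an adaptor of the insulin receptor, by 1.18, G6pc, the glucose-6-phosphatase that releases glucose, by 1.16 (its groups overlapped), the coactivator Ppargc1a by 0.96 and Pck1 by 0.45 (adjusted p = 0.00374).

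Glycogen genes moved in both directions. Of 22 genes of glucose uptake, glycolysis and glycogen 10 were higher and 4 lower, with a median of 0.23 (16 and 3 with plain totals). The subunits that bring protein phosphatase 1 to glycogen moved in opposite directions: Ppp1r3b had 536, 532, 688, 725 and 596 CPM in the controls and 148, 111, 224, 241 and 125 in STAM (-1.92 ± 0.21), Ppp1r3c fell (-1.54), and Ppp1r3g had 0.528, 0.146, 0.526, 0.516 and 0.305 in the controls and 9.67, 10.7, 21.6, 21.5 and 10.9 in STAM (5.21 ± 0.37, adjusted p = 9.72e-07). The groups did not overlap for any of the 3. Gys2, the liver glycogen synthase, rose by 1.18, and the liver pyruvate kinase Pklr rose by 1.11. Slc2a2, the main glucose carrier of hepatocytes, rose by 0.48 with overlapping groups.

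Genes of lipid droplets were mostly higher. Of 21 tested genes of lipid droplets and fatty acid uptake 15 were higher and 1 was lower (Cideb, -0.20; not without control 1, 3, 4 or 5 or STAM 1, 2 or 5 alone, adjusted p up to 0.0786; with plain totals 0.09), with a median of 0.70. Cidea, a relative of Cidec that is mostly seen in brown fat, had 2 reads over the 5 controls and 1203 over the 5 STAM livers, 3.59 to 16.5 CPM in the latter (ratio 526, 95% interval 145 to 4350 for counting error only). Mogat1, which acylates monoglycerides, had 0.462, 0.631, 0.144, 0.188 and 0.508 CPM in the controls and 7.39, 6.64, 8.86, 7.62 and 10.5 in STAM (4.55 ± 0.36). Slc27a1 (2.14), Plin4 (2.08) and Cd36 (1.57), a fatty acid carrier, a droplet coat protein and a fatty acid receptor, rose without overlap, and so did the lipase Pnpla2 (1.56). Plin2, the common droplet coat of hepatocytes, rose by 0.58 ± 0.15 (adjusted p = 0.00658), with overlap. Pparg, the adipogenic receptor that drives several of these genes, rose by 0.50 (adjusted p = 0.00543). The adipocyte markers Adipoq, Lep, Plin1 and Retn were below the level tested, while Fabp4, which macrophages and endothelium also express, rose by 2.38; the summed adipocyte list was 7.18 to 11.5 CPM in the controls and 29.2 to 56.6 in STAM, and its part in the droplet genes was not tested.

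Of 21 tested genes of fatty acid and triglyceride synthesis 7 were higher and 4 lower, against 25.3% and 22.5% of all genes, with a median of 0.19 (10 and 1 with plain totals, median 0.48). Lpin1, a phosphatidate phosphatase that also acts as a coactivator, had 138, 47.02, 72.2, 118 and 132 CPM in the controls and 515, 328, 689, 657 and 402 in STAM (2.41 ± 0.34, adjusted p = 0.000389). The elongase Elovl5 (1.80) and the desaturases Fads2 (1.37) and Scd2 (1.02) rose. Fasn, the fatty acid synthase, had 635, 211, 323, 441 and 320.1 CPM in the controls and 345, 507, 355, 664 and 294 in STAM and did not pass (0.20 ± 0.31, adjusted p = 0.629). The regulators Srebf1 (-0.34, adjusted p = 0.124, but 0.0377 without STAM 3) and Mlxipl, the glucose-sensing ChREBP (-0.90, adjusted p = 4.23e-05), were lower on average, and only the second passed. Dgat2, which makes triglyceride, fell (-0.52) but not with plain totals (-0.23, adjusted p = 0.0602).

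Fatty acid oxidation genes rose or did not pass. Of 30 tested genes of oxidation, ketogenesis and PPAR alpha targets 15 were higher and none lower, with a median of 0.55, and 25 were higher with plain totals and 23 with quantiles. Ucp2, a mitochondrial carrier, went from 18.6 to 28.1 to 125 to 181 CPM (2.64 ± 0.12). Cyp4a31 (2.38), Pdk4, which shuts glucose carbon out of mitochondria (2.11), Acot2 (2.02), Ehhadh (1.09) and Cpt1a, the gate of fatty acids into mitochondria (1.02) rose. Fgf21, a fasting hormone of the liver, had 0.264, 3.06, 0.766, 0.422 and 0.254 CPM in the controls and 6.35, 5.23, 3.65, 11.03 and 18.5 in STAM (3.66 ± 0.70). Ppara itself did not pass with the authors' scaling (0.01, 95% interval -0.22 to 0.25), but passed as higher with plain totals and with quantiles.

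Cholesterol synthesis and uptake genes were lower on average and uneven between libraries. Of 24 tested members 8 fell and none rose, with a median of -0.71 (6 fell and 2 rose with plain totals). The count of falls was 6 to 12 when any 1 library was left out. Insig1, the sterol-responsive brake on SREBP, went from 560.2, 351, 465, 417 and 278 CPM in the controls to 156, 90.8, 111, 168 and 142 in STAM (-1.63 ± 0.21), and Cyp51, an enzyme of sterol synthesis, fell as well (-1.27). Sqle, which oxidises squalene, ranged over 8.55 to 40.2 CPM within the STAM group and did not pass (-0.73 ± 0.68). Of 20 apolipoprotein and VLDL assembly genes 3 rose and 11 fell with the authors' scaling, and 5 rose and 3 fell with plain totals. Apoa4, described above, Apoc2, the cofactor of lipoprotein lipase (1.05), and Pltp (0.71) rose, and Lipc (-0.87) and Apoc3 (-0.80) fell under both scalings.

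Bile acid genes were mostly lower. The liver makes bile acids from cholesterol by a classic route that starts with Cyp7a1 and an alternative route through Cyp27a1 and Cyp7b1, and pumps them into bile through Abcb11. Of 24 tested members 17 fell and 3 rose, with a median of -0.57 (12 fell and 6 rose with plain totals). Cyp2c70 had 1120.0, 344, 565, 762 and 429.9 CPM in the controls and 41.9, 47.6, 49.1, 51.5 and 40.7 in STAM (-3.68 ± 0.28, adjusted p = 8.28e-06). Cyp7b1 had 412, 144, 242, 316 and 150.3 in the controls and 141, 90.7, 118, 74.2 and 39.3 in STAM (-1.46 ± 0.41, adjusted p = 0.0181). Cyp27a1 (-0.83), Akr1d1 (-1.37), the export pump Abcb11 (-1.11) and the uptake carrier Slco1a4 (-1.64) fell. Nr0b2 (SHP), the repressor that bile acids induce through FXR, had 36.4, 63.8, 50.6, 37.1 and 31.8 CPM in the controls and 12.99, 7.46, 18.1, 4.65 and 9.82 in STAM (-2.15 ± 0.36). Cyp8b1, which makes cholic acid, rose by 1.64 ± 0.21 (adjusted p = 9.84e-05), and Abcb4, which secretes phospholipid, by 0.93. Cyp7a1 spread over 45.9 to 207 CPM in the controls and 145 to 289.6 in STAM and did not pass (0.79 ± 0.39, adjusted p = 0.13). It passed as higher with plain totals.

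Drug-metabolising enzymes fell further than most groups. Of 21 tested members 16 were lower and 2 higher (Por, 0.64, and Ephx1, 0.48, not without STAM 1 or 3 alone, adjusted p up to 0.0592), with a median of -0.81, and 12 were lower with plain totals. Cyp3a11 (chr5:145854607-145879854), the main drug-clearing P450 of mouse liver, had 3904, 6732, 5649, 6256 and 6245 CPM in the controls and 1164, 1188, 1068, 1112 and 1769.5 in the STAM livers (-2.19 ± 0.17, adjusted p = 1.02e-06). Cyp2b10, the classic target of the receptor CAR, had 20.2, 30.8, 38.95, 55.2 and 91.9 and 1.46, 3.23, 2.14, 1.04 and 2.22 CPM (-4.46 ± 0.42). Cyp1a1 (-1.33), Ces1d (-1.52) and Ugt2b5 (-0.67) fell too. Nr1i3, which encodes CAR, fell (-0.81, adjusted p = 0.0254), but did not pass with plain totals (adjusted p = 0.111), with quantiles (adjusted p = 0.0853) or without some single libraries (not without control 2 or 4 or STAM 4 alone, adjusted p up to 0.0577), and Nr1i2, which encodes PXR, did not pass (-0.10, adjusted p = 0.292).

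Sex-biased genes did not move as 1 group. Male liver keeps its pattern through pulses of growth hormone that act by STAT5. Of 18 tested male-biased genes 5 were lower and 2 higher (5 and 5 with plain totals). Besides Hsd3b5, Slco1a1 (780.1, 622, 733, 908 and 560.4 CPM in the controls and 203, 103, 237, 254 and 46.4 in STAM, -2.32 ± 0.46), Mup3 (-1.37), Nudt7 (-1.37) and Cspg5 (-1.18) fell, while Mup20 (0.71; not without control 2 or 5 or STAM 2, 3 or 4 alone, adjusted p up to 0.07) and Susd4 (0.89) rose. The male urinary proteins are near-identical copies, and Mup7 and Mup21 were among the 10 most variable genes of the STAM group (378 to 2199.5 and 17.7 to 144 CPM). Of 20 tested female-biased genes 3 rose and 4 fell (5 and 4 with plain totals). Cyp2a4 went from 7.59, 28.4, 9.62, 19.5 and 23.7 to 255, 194, 186, 164 and 534 CPM (3.94 ± 0.46) and Cyp17a1 rose by 2.41, whereas Cyp2c69 (-4.19) and Cyp3a16 (-2.20) fell. Cyp2b9 ranged over 28.7 to 179 CPM within the STAM group and did not pass (adjusted p = 0.373). Of 19 tested genes of the growth hormone and IGF axis 5 were higher and 6 lower, against 25.3% and 22.5% of all genes. With plain totals 7 were higher and 4 lower, so the list has no stable direction. In the growth hormone axis, Igfals, which stabilises IGF-1 in blood, had 135, 114, 128, 114 and 134 and 63.1, 37.2, 62.2, 29.98 and 33.5 CPM (-1.53 ± 0.21), Bcl6, a repressor of female-biased genes, had 83.9, 101, 94.8, 84.7 and 55.6 and 23.1, 25.5, 27.1, 22.1 and 11.99 (-1.96 ± 0.23), and the receptors Prlr (-1.80) and Ghr (-0.70) and Igf1 (-0.42) fell, of which Igf1 did not pass with plain totals (adjusted p = 0.268) or quantiles (adjusted p = 0.178). Lepr, Igfbp3 (1.31) and Socs2, a target of STAT5 (0.90), rose.

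Genes that define the hepatocyte and its secreted products were lower. Of 20 core hepatocyte genes 15 fell and none rose, with a median of -0.57, and 8 fell with plain totals. Their summed level was 118540 to 141640 CPM in the controls and 66032 to 83789 in STAM. Alb (-0.96 ± 0.18), Gc (-0.72), Ttr, the thyroid hormone carrier (-0.74), and Foxa2 (-0.79) fell, but Foxa2 did not pass with plain totals (adjusted p = 0.101). Alb did not pass with quantile scaling. That scaling gives equal ranks equal values in all libraries, so it cannot decide about a gene as abundant as Alb. Hnf4a, the factor that sets hepatocyte identity, fell (-0.51, adjusted p = 0.00256; with plain totals -0.22, adjusted p = 0.119). Of 29 genes of complement and coagulation 22 fell and 1 rose (Pros1, 0.28), with a median of -0.62, and 17 fell with plain totals. C8b of the membrane attack complex had 667, 288, 481, 518 and 487 CPM in the controls and 214, 168, 206, 178 and 102 in STAM (-1.49 ± 0.25, adjusted p = 0.000748), and Cfb (-1.02), F7 (-0.96) and C3 (-0.69; with quantiles adjusted p = 0.167) fell. In the zones of the lobule, 9 of 16 periportal genes fell and 1 rose (Aldh1b1, 1.24), with 6 falls under plain totals. Hal (-1.03), Nags (-0.89) and Cyp2f2 (-0.73) were among those that fell. Of 20 pericentral and Wnt target genes 4 rose and 7 fell, and 9 rose and 4 fell with plain totals, so the list has no stable direction. Cyp1a2 (735, 499, 563, 746 and 748 and 231, 98.96, 204, 144 and 90.3 CPM, -2.18) and Lgr5, a Wnt co-receptor (-1.41), fell under both, and Glul, which marks the last layer of cells around the central vein, rose by 0.39 with overlap (not without control 3 or 5 or STAM 1, 3 or 4 alone, adjusted p up to 0.0717).

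Methionine cycle and choline genes fell in 10 of 21 cases and rose in 2 (6 and 6 with plain totals). Gnmt, which uses up methyl groups (-0.97), and Pemt, which makes phosphatidylcholine (-0.75), fell, and Mat1a, which makes S-adenosylmethionine in liver, rose by 0.52. Among iron genes 1 of 17 rose and 6 fell (5 and 4 with plain totals). Hamp, the iron hormone hepcidin, had 135, 732, 718, 461 and 374 CPM in the controls and 40.2, 176, 110.4, 19.1 and 6.27 in STAM (-3.40 ± 0.96, adjusted p = 0.0186). Control 1 lay below STAM 2, so the groups overlapped. Without control 1 and STAM 5 the value was -3.14 (adjusted p = 0.0135). Tfrc, the transferrin receptor, had 73.4, 100.2, 105, 108 and 124 and 39.5, 36.9, 26.5, 61.6 and 59.3 CPM (-1.24 ± 0.23).

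Acute phase genes had no common direction, with 5 of 24 higher and 7 lower (5 and 4 with plain totals, 5 and 3 with quantiles, and 5 to 10 lower when any 1 library was left out). Saa1 had 4300.2, 28.3, 300.1, 269 and 68.7 CPM in the controls and 135, 136, 100.1, 112 and 48.4 in STAM and did not pass (-1.22 ± 1.24, adjusted p = 0.451). Control 1 was the highest of all 10. Without control 1 and STAM 5 the Saa1 value was 0.10 (adjusted p = 0.936). Lcn2 had 169, 2.14, 7.47, 4.64 and 2.23 and 31.1, 45.4, 33.4, 39.1 and 59.7 CPM (2.38, adjusted p = 0.122), and 3.36 without those libraries (adjusted p = 0.00053). Mt2 (3.94) and Mt1 (44.6, 4.18, 5.55, 4.27 and 5.74 and 77.6, 101, 96.4, 56.5 and 76.9 CPM) rose, as did Il1rn, the interleukin-1 receptor antagonist (4.49, 2.38, 2.06, 2.39 and 3.55 and 17.5, 27.9, 16.6, 13.1 and 16.5 CPM, 2.63 ± 0.23). The fibrinogen chains Fga, Fgb and Fgg fell (-0.77, -0.83 and -0.77), Fgg not with quantiles (adjusted p = 0.0825).

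Markers of lipid-associated and recruited macrophages were higher throughout most of the list. These cells gather around fat-laden hepatocytes and are known by Trem2 and Gpnmb. Of 20 tested markers 18 rose and none fell (16 and 1 with quantiles), with a median of 1.82 and a summed level of 526 to 656 CPM in the controls and 782 to 1295 in STAM. Trem2 (NM_031254, chr17:48346401-48352276) had 0.528, 0.486, 0.622, 0.281 and 0.152 CPM in the controls and 1.79, 4.45, 2.35, 3.27 and 3.76 in STAM (2.96 ± 0.38, adjusted p = 4.48e-05). Gpnmb had 0.594, 0.146, 0.0957, 0.141 and 0.102 and 3.62, 20.4, 5.89, 11.9 and 27.8 (5.92 ± 0.62), and Mmp12, a macrophage elastase, had 0.330, 0.243, 0.0957, 0.0938 and 0.0508 and 8.85, 24.3, 8.13, 11.03 and 18.4 (6.48 ± 0.46). The chemokine receptors Cx3cr1 (3.19) and Ccr2 (1.93) and the integrin Itgax (2.67) rose without overlap. The pan-macrophage markers Cd68 (0.69) and Adgre1, which encodes F4/80 (0.63), rose less, with overlap. Fabp5 (-0.36, adjusted p = 0.714) and Atp6v0d2 (-0.13) did not pass, though Atp6v0d2 passed as lower with quantiles.

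Of 11 Kupffer cell markers 4 were higher and 2 lower, near the shares of all genes. With plain totals 7 were higher and 1 lower, with the replicate block 2 were higher, and 2 to 4 were higher when any 1 library was left out. Cd163, a haemoglobin scavenger, fell (-1.70 ± 0.30), and Slc15a3 rose by 0.90. The defining marker Clec4f stood at 105 to 152 CPM in the controls and 103 to 190.2 in STAM (0.10, adjusted p = 0.602), and Timd4 did not pass (-0.73, adjusted p = 0.124). Of 25 cytokines and chemokines 12 rose and 3 fell, with a median of 1.01 (15 and 1 with plain totals). Ccl3 (3.63) and Ccl22 (3.55), which draw monocytes and T cells, Cx3cl1, the ligand of Cx3cr1 (2.51), and Ccl5 (2.20) rose. Cxcl13, which draws B cells (-1.93), Il18 (-0.46) and Ccl9 (-0.70) fell, though with plain totals Il18 (adjusted p = 0.196) and Ccl9 (adjusted p = 0.0708) did not pass. Tnf (0.188 to 0.479 and 0.297 to 0.784 CPM, adjusted p = 0.0807, but 0.0385 without STAM 4), Il1b (adjusted p = 0.927) and Ccl2 (0.99, adjusted p = 0.0686, but 0.00626 without control 1) did not pass. With plain totals Tnf and Ccl2 passed.

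Markers of lymphocytes and granulocytes were at low levels in all 10 libraries. Of 21 T and NK cell markers 9 were higher and none lower, over sums of 13.1 to 15.9 CPM in the controls and 16.9 to 22.3 in STAM. With quantile scaling 2 were higher and 3 lower, so their direction is not settled. Pdcd1, which encodes PD-1, had 0 reads in the 5 controls and 24 over the 5 STAM livers (at least 7.0-fold higher, taking 3 reads as the limit for the 5 controls together), and Cd8a had 0.132 to 0.479 and 0.555 to 1.45 CPM (1.96, adjusted p = 0.00193; with quantiles 0.0759). Cd3e did not pass (1.02, adjusted p = 0.112, but 0.0239 without STAM 3), though it passed with plain totals. Of 11 B cell and plasma cell markers 1 was higher (Cd22, 0.77, and none with quantiles), and sums were 5.02 to 9.81 and 8.31 to 10.1 CPM. Of 11 neutrophil markers 6 were higher, but 10 with plain totals, 3 with quantiles and 4 to 10 when any 1 library was left out, over sums of 4.64 to 9.70 and 9.75 to 22.4 CPM. Csf3r rose by 1.04, and S100a8 (0.243 to 1.25 and 0.521 to 2.86 CPM) did not pass (adjusted p = 0.0681, but 0.014 without STAM 3). S100a8 passed with plain totals. Of 15 dendritic cell and MHC class II genes 11 rose and none fell, with a median of 1.16. The class II genes H2-Eb1 (1.72), H2-Aa (1.34) and Cd74 (1.16), their activator Ciita (1.77) and the dendritic markers Cd209a (2.19) and Flt3 (2.36) rose, whereas Xcr1 (0.46) and Clec9a (0.27) did not pass. Clec9a passed with plain totals.

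Interferon response genes were higher. Of 29 tested members 24 rose and 1 fell (Stat2, -0.34, not with plain totals or quantiles), with a median of 0.90. Usp18, which dampens interferon receptor signalling, had 11.2, 6.07, 7.61, 7.18 and 7.92 CPM in the controls and 36.8, 35.8, 36.2, 32.1 and 34.5 in STAM (2.16 ± 0.13, adjusted p = 1.67e-07). Every STAM value lay above every control value. Oas1g (1.57) and Oas1a (1.5), near-identical sensors of double-stranded RNA, Ifi44 (1.31) and Ifi27l2a (1.39) rose, and so did Irf7 (0.88) and Isg15 (0.60). Ifit1 rose by 0.49 (adjusted p = 0.0196, not without STAM 2 or 4 alone, adjusted p up to 0.0517), and Irf9 did not pass (-0.07, adjusted p = 0.515). With plain totals Irf9 passed as higher.

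The interferon-stimulated response element is shown for 4 of these genes. It was searched as GAAA and GAAA 2 bases apart on both strands, with overlapping matches allowed, and was found for 13 of 21 members with a RefSeq window, against 3.44% of all windows and 3.99% of genes. The 4 shown all rose, but the 13 also include Stat2, which was lower (-0.34), and Ifit1, which rose less (0.49). Capitals mark the matches in stretches of 120 bases, 5′ to 3′ on the strand of the gene.
Ifit3: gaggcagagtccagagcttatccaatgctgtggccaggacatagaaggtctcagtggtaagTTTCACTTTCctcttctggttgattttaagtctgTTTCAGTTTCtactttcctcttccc
Isg15: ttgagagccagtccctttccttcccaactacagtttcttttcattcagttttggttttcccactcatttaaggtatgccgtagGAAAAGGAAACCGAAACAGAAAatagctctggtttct
Oas1a: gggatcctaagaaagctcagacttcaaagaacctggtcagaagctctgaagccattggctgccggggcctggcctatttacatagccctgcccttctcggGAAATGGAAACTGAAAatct
Gbp3: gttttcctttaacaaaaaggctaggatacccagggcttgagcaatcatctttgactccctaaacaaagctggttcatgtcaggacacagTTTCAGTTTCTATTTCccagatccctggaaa
These are chr19:34583312-34583431 (plus strand), chr4:156200860-156200979 (minus), chr5:120907526-120907645 (minus) and chr3:142559910-142560029 (plus) in GRCm38.p6. The match nearest the start ended 112 bases before it in Ifit3, 56 in Isg15, 4 in Oas1a and 29 in Gbp3. Changes of these genes were 0.93 for Ifit3, 0.60 for Isg15, 1.5 for Oas1a and 1.08 for Gbp3.

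Collagen and matrix genes rose almost as a block. Activated stellate cells make fibrillar collagens, the enzymes that crosslink them and the proteases that remodel them. Of 38 tested members 33 rose and none fell, with a median of 1.31. Col1a1 (NM_007742, chr11:94936270-94951856), the main chain of scar collagen, had 9.37, 2.09, 2.87, 0.985 and 2.03 CPM in the controls and 9.59, 26.9, 10.7, 30.9 and 30.4 in STAM (2.89 ± 0.61, adjusted p = 0.00426). The lowest STAM value lay just over the highest control, control 1. Col3a1 had 44.6, 20.4, 22.8, 14.4 and 15.4 and 58.2, 103, 54.9, 125 and 125 CPM (2.03 ± 0.37). Col1a2 (2.09), Col5a2 (2.09), the crosslinking enzyme Loxl1 (1.97), the basement membrane chains Col4a1 (1.36) and Col4a2 (1.48), and Thbs1 (3.16), which activates TGF-beta, rose without overlap. Timp1, an inhibitor of metalloproteases, had 0.132, 0.0486, 0.479, 0.0938 and 0 and 0.485, 2.73, 0.678, 1.34 and 1.32 CPM (3.65 ± 0.82), and the collagenase Mmp13 rose by 4.40. Fn1, which hepatocytes also make in quantity, did not pass (0.13, adjusted p = 0.335), but passed as higher with plain totals and with quantiles.

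Of 19 tested stellate cell markers 10 rose and 4 fell (11 and 2 with plain totals, and 3 to 6 fell when any 1 library was left out), with sums of 811 to 1108 CPM in the controls and 719 to 930 in STAM. Vim (1.62), Pdgfrb (0.85), Pdgfra (0.86) and Tagln (1.02) rose, as did Cygb (0.86) and Rgs5 (0.86), which stellate cells and pericytes express, while Lrat, which stores vitamin A in quiescent cells, fell (-0.80), as did Cxcl12 (-1.0). Acta2, smooth muscle actin, stood at 5.02, 1.65, 0.670, 0.751 and 0.355 CPM in the controls and 1.23, 2.09, 0.678, 3.12 and 1.24 in STAM and did not pass (0.43 ± 0.65, adjusted p = 0.617). In the TGF-beta and YAP list 9 of 16 rose and 1 fell (Amotl2, -0.47, not with plain totals; 7 rose and 4 fell with quantiles). The ligands Tgfb2 (2.24), Tgfb3 (1.12, with quantiles adjusted p = 0.262) and Tgfb1 (0.72), the receptor Tgfbr2 (1.43) and the target Ctgf (4.62, 4.61, 6.70, 5.77 and 8.89 and 20.5, 21.00, 34.04, 43.00 and 26.2 CPM, 2.22 ± 0.24) rose, and Cyr61 did not pass (-0.30, adjusted p = 0.138, but 0.0361 without control 5). Cyr61 passed as lower with quantiles.

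Bile duct and ductular markers rose in 10 of 15 cases and fell in 1 (Onecut2, -0.80), with 4 rises under quantile scaling. Krt23, a keratin of stressed liver, had 0.792, 3.30, 1.63, 3.38 and 5.43 CPM in the controls and 35.2, 38.6, 33.5, 13.2 and 30.4 in STAM (3.56 ± 0.52, adjusted p = 0.000514). Cftr (3.10), Cldn4 (2.77), Cd24a (2.10) and Sox9 (1.02) rose without overlap, and Epcam rose by 1.65, but with quantiles Sox9 (adjusted p = 0.113) and Epcam (adjusted p = 0.0721) did not pass. Krt19 did not pass (1.02, adjusted p = 0.0845, but 0.0374 without control 3), and Krt7 passed with overlap (1.46; not with quantiles, and not without control 4 or 5 or STAM 5 alone, adjusted p up to 0.0586). Krt19 passed as higher with plain totals. Of 18 endothelial markers 7 rose and 2 fell (9 and none with plain totals). Lyve1, which sinusoidal and lymphatic endothelium share, had 10.2, 11.1, 18.8, 8.68 and 17.9 and 36.5, 51.3, 41.1, 48.6 and 78.9 CPM (1.96 ± 0.27). Vwf (1.63), Cd34 (1.62) and Plvap (0.75), markers of vessels that have lost the sinusoidal type, rose. Stab2 (-0.04, adjusted p = 0.794) and Oit3 (0.22, adjusted p = 0.0609, but 0.0405 without control 5), which mark the sinusoids, did not pass. Oit3 passed as higher with plain totals and with quantiles. Clec4g fell (-0.47), though not with plain totals.

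Cell division genes were higher in the STAM livers. Of 34 tested members 29 rose and 1 fell (Tk1, -1.45), with a median of 1.89; 21 rose with quantile scaling, and 25 to 29 when any 1 library was left out. Ccnb1, the mitotic cyclin, had 0.264, 0.0486, 0.431, 0.328 and 0 CPM in the controls and 1.68, 2.86, 1.93, 3.51 and 3.67 in STAM (4.39 ± 0.88, adjusted p = 0.0018). Mki67 had 4.55, 2.23, 4.59, 4.88 and 2.74 and 18.4, 18.9, 12.3, 23.7 and 19.8 (2.33 ± 0.24). Cenpf (4.60), Cdc20 (3.96), Plk1 (3.40) and Foxm1, the factor that drives this set (2.23), rose without overlap, as did Ccnd1 (30.8, 20.5, 29.00, 22.8 and 18.8 and 81.7, 121, 57.97, 108 and 112 CPM). Pcna (-0.14, adjusted p = 0.126) and Tyms (-0.06) did not pass. The summed level was 126 to 168 CPM in the controls and 215 to 319 in STAM. Markers of immune cells, which also divide, rose in the same livers, and their part in these genes was not tested.

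Genes of fetal liver and liver tumours were higher in 11 of 18 cases and lower in none, with a median of 2.31 (2.25 with genes that had few control reads at their bound). Afp (NM_007423, chr5:90490714-90508907), the fetal albumin relative used as a tumour marker, had 0.462, 0.243, 0.239, 0.657 and 0.203 CPM in the controls and 2.61, 4.55, 3.75, 9.95 and 4.44 in STAM (3.76 ± 0.39, adjusted p = 8.20e-06). Ly6d had 0.396, 1.12, 0.670, 0.281 and 0.406 and 38.97, 94.6, 50.2, 91.8 and 105 CPM (7.09 ± 0.40, adjusted p = 1.03e-06). Igf2bp3, an RNA-binding protein of fetal tissue, had 3 reads over the controls and 939 over the STAM livers (ratio 274, counting interval 93.4 to 1330). Akr1c18 (5.90), Cbr3 (3.25), Robo1 (2.36), Sox4 (2.17) and Golm1 (0.99) rose without overlap. Gpc3 rose by 1.27, but with overlap, and not without control 1 and STAM 5 (adjusted p = 0.159) or most other single libraries (not without control 1, 4 or 5 or STAM 2, 3, 4 or 5 alone, adjusted p up to 0.0984). Igf2 (1.0, adjusted p = 0.117, but 0.0175 without STAM 3) and Myc (0.96, adjusted p = 0.221, but 0.0399 without control 1) did not pass.

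**Figure D4:**
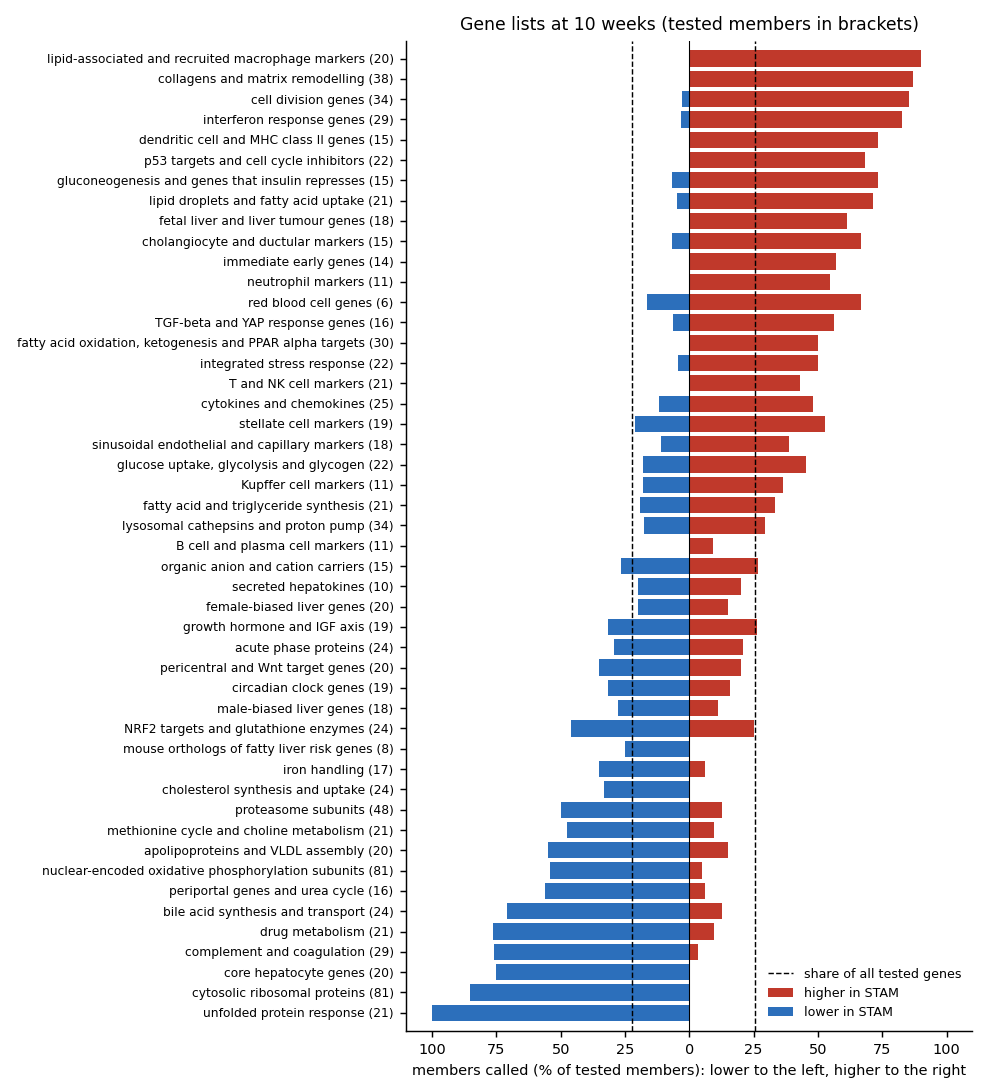
Each bar pair is 1 gene list, with the share of its tested members that passed the test at 10 weeks drawn to the right where higher in STAM (red) and to the left where lower (blue). Dashed lines are the shares of all 15312 genes tested, 25.3% higher and 22.5% lower. The macrophage, collagen, cell division and interferon lists reach furthest right, and the unfolded protein response list reaches furthest left, at 21 of 21.

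Large complexes moved by small amounts that rest on the scaling. Of 81 cytosolic ribosomal proteins 69 fell and none rose, with a median of -0.38, but 12 fell and 1 rose with plain totals. Of 81 nuclear-encoded subunits of oxidative phosphorylation 44 fell and 4 rose, whereas 1 fell and 19 rose with plain totals. Of 48 proteasome subunits 24 fell and 6 rose, and 2 fell and 13 rose with plain totals. For the latter 2 groups no direction can be given. Of 34 lysosomal cathepsin and proton pump genes 10 rose and 6 fell, and 23 rose and 2 fell with plain totals.

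Further lists are given more briefly, against the shares of all genes, 25.3% higher and 22.5% lower. Among circadian genes, whose level depends on the hour of sampling, 3 of 19 rose and 6 fell (6 and 5 with plain totals, and 0 to 4 rose when any 1 library was left out), with changes of -1.35 for Cry1 (adjusted p = 3.73e-05), -1.31 for Arntl and 0.83 for Per1 (not without control 2 or STAM 1, 3 or 4 alone, adjusted p up to 0.0664). The other 2 that rose, Dbp (0.63; not without control 2 or 3 or STAM 1 or 3 alone, adjusted p up to 0.0577) and Bhlhe41 (0.59; not without control 2, 3 or 5 or STAM 1, 2 or 3 alone, adjusted p up to 0.0889), lost their calls in the same way. The labels give no hour of sampling. Of 14 immediate early genes, which respond within minutes to handling as well as to growth signals, 8 rose and none fell (4 rose and 1 fell with quantiles), led by Egr2 (3.46) and Egr1 (1.89), both with overlap, Egr1 not without control 1 and STAM 5 (adjusted p = 0.061). Of 8 mouse orthologs of fatty liver risk genes 2 were lower (Gckr and Cideb; with plain totals 4 were higher and none lower), and neither passed without control 1 and STAM 5 (Gckr not without control 2, 4 or 5 or STAM 2 or 5 alone, adjusted p up to 0.0847). Pnpla3 had 2.44, 1.02, 0.909, 0.563 and 1.22 CPM in the controls and 1.08, 0.773, 1.04, 2.47 and 0.896 in STAM (0.06, 95% interval -0.78 to 0.90). Of 15 carriers 4 rose and 4 fell, near the shares of all genes (9 and 4 with plain totals). Slco2a1, a prostaglandin carrier, had 149.9, 154, 161, 140.0 and 154 and 57.7, 56.9, 47.96, 44.2 and 49.5 CPM (-1.57 ± 0.08), and Slc13a5, a citrate carrier, rose by 2.38 with overlap. Of 10 secreted hepatokines 2 rose and 2 fell (3 and 1 with plain totals), with Fst, which blocks activins, at 1.80, Igfbp7 at 0.89, Fgf1 at -0.89 and Tsku at -0.70 (not without control 2, 3, 4 or 5 or STAM 2, 3 or 5 alone, adjusted p up to 0.0677, nor with either other scaling). Of the tested genes of tissue that a dissection can carry along, 0 of 2 pancreatic acinar genes and 0 of 2 muscle genes passed. Of 6 red blood cell genes 4 rose and 1 fell, with 2 rises under quantile scaling or without control 1 and STAM 5, and 2 to 5 when any 1 library was left out, over sums of 82.9 to 145 CPM in the controls and 45.7 to 85.8 in STAM.

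Within the STAM group the most variable of the abundant genes were Hsd3b5, Hamp, Mup21, Serpina12, Cyp2b9, Slco1a1, Zbtb16, Slc25a25, Mup7 and Sqle. Serpina12, an adipokine that liver also makes, ranged over 10.5, 7.77, 18.1, 50.2 and 8.19 CPM and Zbtb16 over 18.2, 10.1, 31.3, 33.4 and 68.7. STAM 5 was the lowest of the group for Hsd3b5, Hamp and Slco1a1. Within the controls the most variable were Saa2, Cyp2b9, Saa1, Lcn2 and Mt2, and Saa2 ranged over 3155, 13.9, 119, 105 and 37.3 CPM, with control 1 on top.

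The same contrast at 4 weeks of age, in 5 STAM and 5 control livers of their own, shows which of these changes differ between the ages. At that age STAM mice had received streptozotocin. The labels give their diet as high-fat for 4 weeks, whereas the study design starts that diet in week 4, so it is not known whether they had been fed it, and a difference between the ages cannot be told apart from a difference in diet. The genes tested at 4 weeks were also 15312 in number, but they were not all the same genes as at 10 weeks. The counts of calls shared by the ages are therefore not over a common set of genes. Of the 15312 tested at 4 weeks, 1500 (9.80%) passed. Of these, 1064 also passed at 10 weeks, which is 70.9% of the 4-week and 14.5% of the 10-week calls, 1008 of them in the same direction. The 2 ages share no library. The difference between the 2 effects was tested in 1 model over 20 libraries and 15022 genes, and 3011 genes passed, with the STAM effect higher at 10 weeks for 1335 (8.89%) and lower for 1676 (11.2%). With plain totals these were 2899 and 539.

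The unfolded protein response list differed between the ages. At 4 weeks 1 of its 21 genes passed (Xbp1, -0.44), and the effect was lower at 10 than at 4 weeks for 19 of 21 and higher for none (18 with plain totals and 18 with quantiles), against 11.2% of all genes. Hspa5 changed by 0.23 at 4 weeks (adjusted p = 0.633), a difference of -1.53 ± 0.28 between ages (adjusted p = 0.00085). Dnajb9 differed by -1.77 and Sdf2l1 by -1.77.

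Collagens and matrix genes also differed between the ages, with 3 of 38 higher at 4 weeks and a larger effect at 10 weeks for 24 of 38 (28 with plain totals, 21 with quantiles), against 8.89% of all genes. Col3a1 changed by 0.08 at 4 weeks, a difference of 1.95 ± 0.57 (adjusted p = 0.0232). For Col1a1 the difference did not pass (2.43 ± 0.91, adjusted p = 0.0705). Fatty acid oxidation genes had a larger effect at 10 weeks for 13 of 30 and endothelial markers for 8 of 18. Complement and coagulation genes had a lower effect at 10 weeks for 18 of 29 (12 with plain totals), drug metabolism for 10 of 21, bile acid genes for 10 of 24 (6 with plain totals), and male-biased genes for 8 of 17. At 4 weeks 6 of the 17 male-biased genes were higher in STAM and 0 lower, with a median of 0.90. Their lower effect thus includes rises at 4 weeks that were absent at 10, such as Cyp4a12a (2.82 and -0.05). Cyp2c29 was already lower at 4 weeks (-0.78, adjusted p = 0.00245) and fell further (-3.24 between ages), whereas Igfbp1 (0.19, adjusted p = 0.871) had not passed at 4 weeks and differed by 3.23.

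In the lists that follow, a smaller share of members differed between the ages than in those above. These counts stand against 8.89% of all genes with a higher effect at 10 weeks and 11.2% with a lower one. Of the lipid-associated macrophage markers 14 of 20 were higher at 4 weeks, and 4 had a larger effect at 10 weeks (Cd63, Lpl, Itgax and Cx3cr1; 6 with plain totals). Of the p53 list 11 of 22 were higher at 4 weeks and 2 differed (Eda2r and Cdkn2c; 5 with plain totals and 1 to 5 when any 1 library was left out). Cdkn1a changed by 2.62 at 4 weeks and 3.78 at 10, and the difference did not pass (1.16 ± 0.52, adjusted p = 0.131). Cidec changed by 3.08 and 4.51 (1.43 ± 0.65 between ages, adjusted p = 0.13). Of the cell division genes 29 passed at 10 weeks and none was higher at 4 weeks, yet the difference itself passed for 4 of 34 (Cdc20, Plk1, Cenpf and Ube2c); between 3 and 25 passed when 1 library was left out. Of the interferon genes 26 of 29 were higher at 4 weeks, and the effect was lower at 10 weeks for 9 and higher for 1 (Usp18, 0.85). With quantiles it was also lower for 9, but with plain totals for 1. Igf2 rose by 6.06 at 4 weeks and did not pass at 10 (-5.06 ± 0.62 between ages), and Saa1 rose by 2.39 at 4 weeks and did not pass at 10 (-3.61 between ages).

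**Figure D5:**
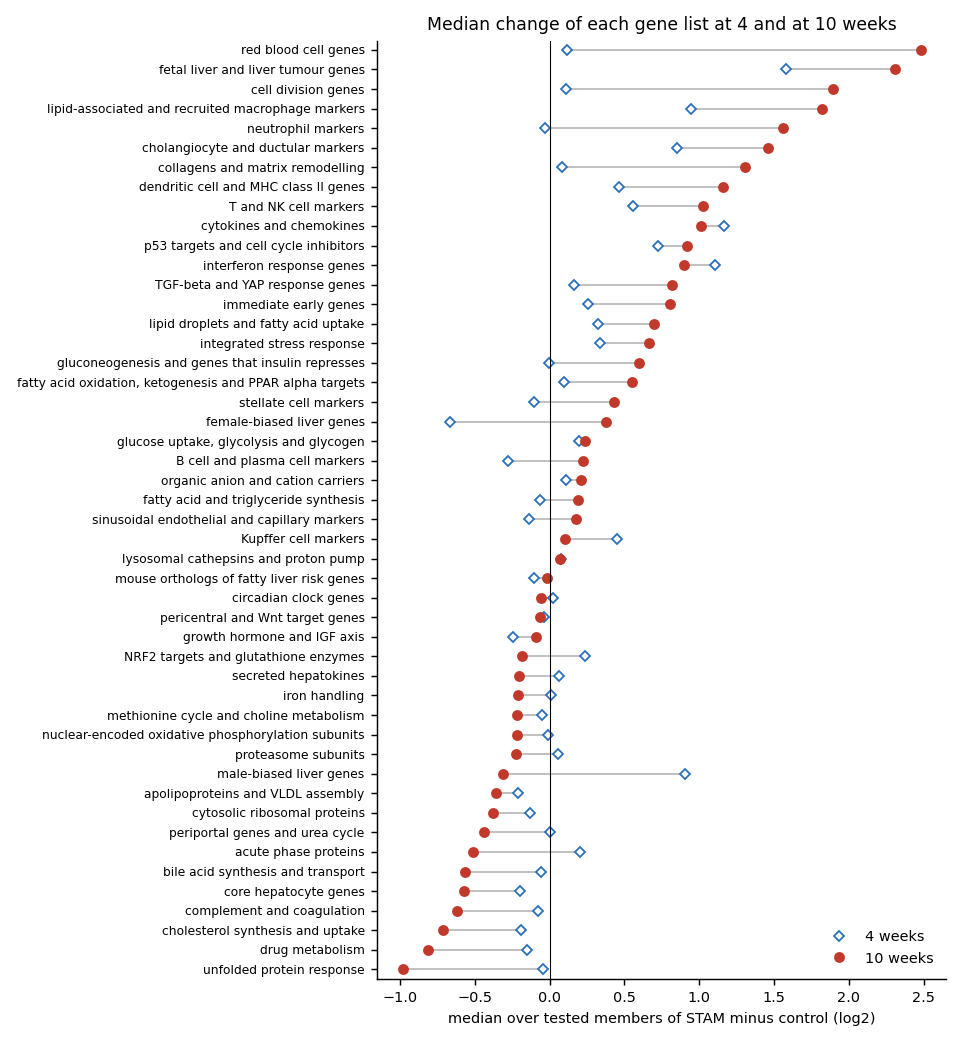
For each gene list the diamond is the median over tested members of STAM minus control at 4 weeks and the filled point that at 10 weeks (log2). The unfolded protein response list moves from near 0 to -0.98, the collagen list from near 0 to 1.31 and the cell division list from near 0 to 1.89, while the interferon list lies at 0.90 at 10 weeks.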

How the data were processed

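Stranded poly(A) libraries from whole liver were sequenced in pairs of reads, per the labels' protocols, and aligned with STAR 2.4.2a to mm10, per the submitters' processing notes. The read counter and annotation are not named in the labels. The deposited values are log2 CPM, scaled within each table by the authors. The authors' deposited table also holds their own log2 fold changes and p-values, which are not printed here. Each value was a whole number of reads (within 0.05 reads, for 100% of values) after removal of a prior of 0.25 reads, so depths were recovered from the files.

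Genes above the 25th percentile of the row mean (15312) were tested with limma 3.58.1 in R 4.3.3, with trend and robust variance, and p-values were adjusted by Benjamini-Hochberg over all of them. The test was checked on simulated data in which few genes changed and all had the same dispersion. That check does not cover changes as widespread as those seen here or the choice of scaling. The ages were compared in 1 limma model of 4 groups. Per-library measures had exact permutation tests. Alternatives were plain totals, quantile scaling, other filters and priors, voom, a replicate block and leaving out libraries. Replicate numbers appear in the sample titles. Within groups the closest pair of libraries still differed by more than sampling noise.

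Named genes were the 10 largest rises and falls above the median level without overlap, preset members of each list, up to 4 members of each list per direction with the largest change, and the most variable genes. A further 54 list members were named after their values were seen. All lists and genes were chosen with earlier results of these data known. Promoters came from RefSeq (GRCm38.p6). Some genes that these rules chose, and that the list counts include, are not reported here. Near-identical genes share reads and are uncertain.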

Additional observations from a re-analysis of the deposited data

Results flagged for a closer look

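In 31 of 402 groups of 5 values tested, the highest or lowest library lay so far from the others that the gap to its nearest neighbour, as a share of the group's whole range, passed Dixon's 95% limit of 0.71. Chance alone flags about 1 in 20 groups. Control 1 and STAM 5 each gave 11 of the 31, and the number in brackets is that share. Control 1 was high for Mt1 (0.866), Saa3 (0.843), Lcn2 (0.714) and Gpnmb (0.779) and low for Cux2 (0.748), Alb (0.881), Ttr (0.782), Cd74 (0.785), Stab2 (0.752) and Tsku (0.731), and its share of reads from albumin was low as well (0.877). In log2 CPM it had 5.48 for Mt1, where the other controls had 2.07 to 2.52, and 15.7 for Alb, where they had 16.2 at least. STAM 5 was high for Pdk4 (0.847), Cd36 (0.732), Cyp3a11 (0.790), Krt19 (0.807) and Sox9 (0.765) and low for Elovl3 (0.792), Bcl6 (0.752), C9 (0.819), Timd4 (0.725), Irf7 (0.881) and Ccng1 (0.735). It had 6.25 log2 CPM for Pdk4, where the other STAM livers had 3.84 to 4.21, and 1.88 for Krt19, where they had 0.179 to 0.507. STAM 4 was high for Pnpla3 (0.711) and low for Abcb11 (0.801), Pdcd1 (0.752) and Krt23 (0.778), and STAM 2 was high for Orm2 (0.832). Among the other controls, control 2 was low for Apoa1 (0.767), control 3 high for Oas1a (0.726), and control 4 low for Nr1d1 (0.726) and high for Acta1 (1.0), the last from a single read in that library and none in the others.

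Only the largest rises and falls at 10 weeks and the preset list members were screened here. For 48 of them the STAM effect differed between 10 and 4 weeks of age by at least 1 on the log2 scale. Each of these differences passed the test across all genes. The largest rises and falls were chosen by their 10-week effect, which favours a large difference in the same direction. Among all 15022 genes, with no limit on size, the difference passed as higher at 10 weeks for 8.89% and as lower for 11.2%. The value in brackets is the 10-week effect minus the 4-week effect. It was positive for 18. Among genes of lipid and glucose handling these were Apoa4 (2.59), Cidea (6.45), Osbpl3 (1.44), Igfbp1 (3.23) and Irs2 (1.86). The others with a more positive effect at 10 weeks were Rgs16 (3.40), Lepr (5.02), Cyp2a4 (3.46), Cyp17a1 (1.93), Socs2 (3.49), Mt1 (3.64) and Nupr1 (1.37), the matrix and vessel genes Col3a1 (1.95), Mmp13 (1.78), Ctgf (1.70) and Lyve1 (1.78), and Krt23 (3.55) and Ly6d (1.85). Socs2, a target of growth hormone signalling, was lower in STAM at 4 weeks (-2.59) and higher at 10 weeks (0.90).

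The difference was negative for 30. Among them were these enzymes of drug, steroid and bile acid metabolism: Hsd3b5 (-4.35), Cyp2c29 (-3.24), Cyp2c70 (-3.43), Cyp2c40 (-2.75), Cyp2c54 (-2.38), Cyp2c37 (-1.35), Cyp2b10 (-3.33), Cyp3a11 (-2.50), Cyp7b1 (-1.89), Cyp4a12a (-2.86), Cyp2f2 (-1.23), Ces2a (-1.90) and Sdr9c7 (-2.18). Male-biased and growth hormone genes were Mup20 (-1.92), Elovl3 (-2.73) and Bcl6 (-2.66). The chaperone genes Hspa5 (-1.53), Dnajb9 (-1.76) and Sdf2l1 (-1.77) were in this group, as were the plasma and acute phase genes C8b (-1.63), C9 (-1.84) and Saa1 (-3.61), the macrophage gene Marco (-1.34), and the iron and haem genes Tfrc (-1.52) and Alas2 (-1.04). The rest were Gm6484 (-2.76), Lgr5 (-1.32), Igf2 (-5.06), Inhbe (-1.18) and Tsku (-2.71). Igf2, a fetal growth factor, was higher in STAM at 4 weeks (6.06), and its 10-week value (1.0) did not pass. Cyp4a12a was higher at 4 weeks (2.82) and near the control level at 10 weeks (-0.05).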

How the results depend on the processing

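The number of genes that differed at 10 weeks stayed within 1.5 times of 7319 under every alternative run: 7972 with plain totals, 6307 with quantile scaling, 7265 with no filter on low values, 5475 with a filter at the median level, 7344 with a prior of 2 reads, 7313 with voom on the recovered reads, 7117 without control 1 and STAM 5 (chosen after seeing the data), and 6596 to 7421 when any 1 library was left out. The split by direction depended on the scaling, with 7019 higher and 953 lower under plain totals, and the median filter left 2091 higher because fewer low genes were tested. For the difference between ages, plain totals gave 2899 higher and 539 lower, and the other totals were 2071 to 3802. Of 448 named genes tested 373 passed. Of these, 288 kept their call and direction under every alternative, of 19, in which they were tested, and 85 lost the call under at least 1. The filter at the median level tested 10208 genes only, so named genes below that level did not face it. Signs reversed under quantile scaling for Cideb (0.036), Ahsg (0.28), Apoa1 (0.071), Apob (0.050), Mttp (0.080), Spic (-0.060), Des (-0.017) and Ndufa4l2 (-0.035), and under plain totals for Cideb (0.092), Mttp (0.099), Gckr (0.058), Atp6v1h (0.071), Ern1 (0.0026) and Irf9 (0.22); the cause was not tested. Of 1938 list counts, 183 moved by over 1.5 times. The replicate block gave 6566 genes. Deviations of same-numbered libraries correlated at -0.03, -0.07, -0.28, -0.02 and -0.03, and no library matched its own number best. These values give no sign that the numbers pair the libraries, but with 5 a group they cannot exclude it. Genes of few reads are limited by depth, and 3 reads are worth up to 0.198 CPM.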
